A study of Mus musculus with 55 samples.

Results

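The comparison set infarcted left ventricle of mice with type 1 diabetes against that of non-diabetic mice, at day 7 after permanent ligation of a coronary artery. Its members are the 8 libraries titled type 1 diabetic and the 8 titled non-diabetic at day 7, chosen by title, so 16 of the 55 libraries of the series. All mice were C57BL/6J, and all had an infarct, so no group was free of one. By their library names, the type 1 mice are hi STZ and the non-diabetic mice Ctrl. The labels do not spell these out, and STZ is the usual short form of streptozotocin, a toxin of the insulin-producing beta cell. No source used here gives the dose, the duration of diabetes, blood glucose, age or sex. For 2 side comparisons the report also uses 8 type 2 libraries of day 7, named lo STZ HFFD, and 10 type 1 and 11 non-diabetic libraries of day 28. The title of the series asks how immune and metabolic gene expression differs between the forms of diabetes after infarction. Whether each replicate is its own animal is not stated, so p-values measure only how far these libraries spread, and some of that spread may be technical.

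A healing infarct passes through overlapping phases. Neutrophils and then monocytes enter and clear dead muscle, macrophages that derive from them turn toward repair, and fibroblasts become myofibroblasts that lay down collagen. Later the fibroblasts mature, and the scar gains elastic fibres, crosslinks and matrix proteins known from cartilage and tendon. Insulin normally drives glucose uptake into heart muscle through the transporter encoded by Slc2a4.

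Levels are CPM, counts divided by the library total after TMM scaling, and changes are log2 values of type 1 over non-diabetic with their standard error (SE). Of 18165 genes tested with edgeR's quasi-likelihood test, 2016 rose in type 1 infarcts and 2071 fell, which is 11.1 percent and 11.4 percent at an adjusted p at or under 0.05. Counts of rises and falls at day 7 below are to be read beside these shares. Summed over libraries with a common first number in the library name, whose meaning the labels do not give, 702 genes rose (3.70 percent of 18970) and 757 fell (3.99 percent). The median log2 change over all genes was −0.01. The groups did not overlap for 247 genes (1.36 percent): the type 1 libraries were the 8 highest for 112 genes (0.617 percent) and the 8 lowest for 135 genes (0.743 percent). In bulk tissue, fewer cells of a type and less RNA per cell cannot be told apart, which holds for every gene below.

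Library totals ran from 31322847 to 51158036 counts in type 1 infarcts and from 10756242 to 46812053 in non-diabetic infarcts. Genes of heart muscle and of collagen-making cells were abundant in both groups, as the tissue label says. The summed level of 22 cardiomyocyte sarcomere genes ran from 2703 to 27621 CPM in type 1 and from 10783 to 39237 CPM in non-diabetic infarcts. Type 1 replicates 4 (2703 CPM), 7 (8442 CPM) and 6 (9941 CPM) lay below every non-diabetic library. Type 1 replicate 4 stood apart, as it also held 6582 CPM of B cell and plasma cell genes and 2149 CPM of adipocyte genes. The other 7 type 1 libraries had 153 to 465 CPM and 355 to 643 CPM of these lists, and the non-diabetic libraries 200 to 935 CPM and 283 to 712 CPM. Without this library 2131 genes rose (11.6 percent) and 2140 fell (11.7 percent), and 1827 of the rises and 1842 of the falls were calls with it too. The mitochondrial share of counts was 4.44 ± 1.45 percent in type 1 and 5.44 ± 1.85 percent in non-diabetic infarcts (SD, n = 8 each; exact permutation test, two-sided p = 0.253).

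**Figure D1:**
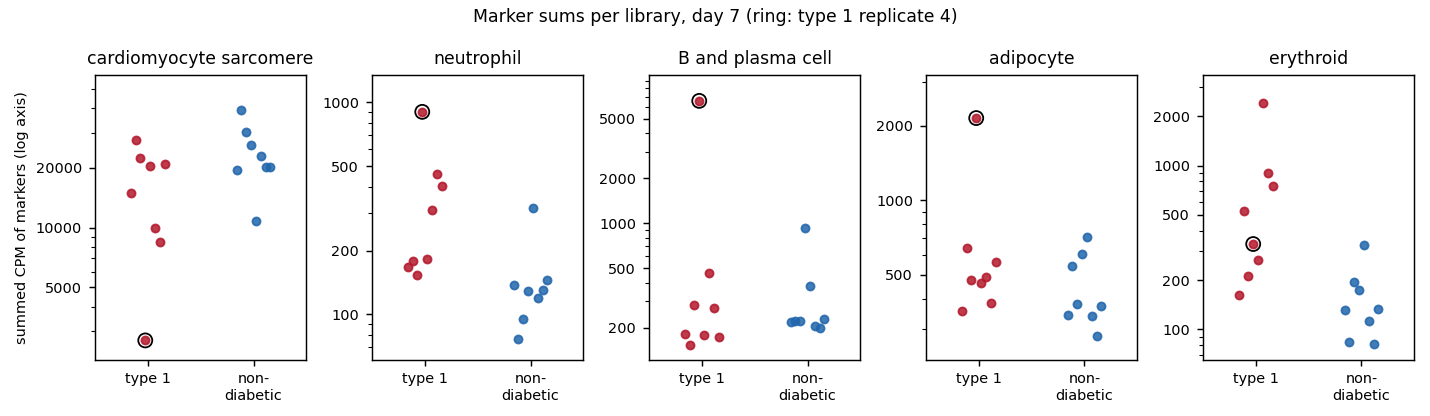
Summed TMM-scaled CPM (log axis) of the marker genes of 5 cell types in each day 7 library, type 1 left and non-diabetic right of each panel, with a ring around type 1 replicate 4. That library has the lowest cardiomyocyte sum (2703 CPM) and the highest neutrophil (903 CPM), B and plasma cell (6582 CPM) and adipocyte (2149 CPM) sums.

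Chemokines and their receptors were higher in type 1 infarcts. Of 21 tested genes that draw in monocytes and neutrophils, 14 rose and none fell, with a median log2 change of 1.09, and 13 rose with each of the 16 libraries left out in turn. Cxcl5, a ligand of the neutrophil receptor CXCR2, stood at 7.87, 13.7 and 37.6 CPM (lowest, median and highest library) in type 1 infarcts, against 1.35, 4.67 and 5.89 CPM in non-diabetic infarcts. The lowest type 1 library was above the highest non-diabetic one, and the log2 change was 2.00 (SE 0.375, adjusted p = 0.000777). Ccl8, a monocyte attractant of the CCL2 family, had 34.2, 48.1 and 92.1 CPM in type 1 infarcts, against 10.2, 16.1 and 22.2 CPM in non-diabetic infarcts, a change of 1.68 (SE 0.181, adjusted p = 2.33e-05). The groups did not overlap here either, nor for Ccl6 (log2 change 1.87) and Ccl9 (1.52), macrophage-derived ligands of CCR1. The receptor itself, Ccr1, which steers neutrophils and monocytes into tissue, had 35.8, 67 and 97 CPM in type 1 infarcts, against 6.1, 19.8 and 28.2 CPM in non-diabetic infarcts. Its change of 1.82 (SE 0.321, adjusted p = 0.000478) again left no overlap. Ccr2, the receptor that inflammatory monocytes need to leave the bone marrow, changed less (0.78, SE 0.19, adjusted p = 0.00501), also without overlap. The classical monocyte attractants Ccl2 (1.73, SE 0.302, adjusted p = 0.000448) and Ccl7 (1.97, SE 0.345, adjusted p = 0.000451) overlapped between groups. Cxcl2, another CXCR2 ligand, rose by 2.05 (SE 0.43, adjusted p = 0.00179), and Cxcl1 of the same family by 1.18 (SE 0.269, adjusted p = 0.00319). For both the groups met or overlapped, and Cxcl2 was highest in type 1 replicate 7.

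Genes of neutrophils rose with them. Of 19 tested neutrophil genes 14 rose and none fell (median log2 change 1.70), 12 of them whichever library was left out. With the mean level of the cardiomyocyte genes as a covariate 10 rose (median 1.04), where 7.93 percent of all genes did. Ly6g, Ngp, Camp and Elane, which mark neutrophils and their precursors, were too low to be tested. Cxcr2, the chemokine receptor of neutrophils, had 2.77, 6.29 and 15.9 CPM in type 1 infarcts, against 0.061, 1.98 and 2.89 CPM in non-diabetic infarcts. The ranges barely overlapped, with type 1 replicate 3 lowest in its group, and the change was 2.44 (SE 0.551, adjusted p = 0.00312). Mmp8, the neutrophil collagenase, rose by 1.45 (SE 0.243, adjusted p = 0.000343) and Fpr2, a receptor for bacterial and mitochondrial formyl peptides, by 1.97 (SE 0.373, adjusted p = 0.000834). S100a8, a subunit of the alarmin calprotectin, had 6.09, 17.3 and 131 CPM in type 1 infarcts, against 1.34, 3.96 and 20.5 CPM in non-diabetic infarcts. Type 1 replicate 4 was highest by far, and without it the median of the neutrophil list was 1.42 and 13 genes rose. Its summed level was 903 CPM there, against a median of 246 CPM over type 1 infarcts and of 129 CPM over non-diabetic infarcts, where replicate 5 was highest (317 CPM). Stfa2l1, a stefin of neutrophils, rose by 3.41 (SE 0.649, adjusted p = 0.00089), with at most 0.577 CPM in any non-diabetic library, and S100a9, the partner of S100a8, by 2.68 (SE 0.653, adjusted p = 0.00516).

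The interleukin-1 system rose in part, its brakes together with its ligands. Of 18 genes 10 rose and none fell (median 0.36). Il1r2, a decoy receptor that binds interleukin-1 without signalling, had 2.93, 7.11 and 28.7 CPM in type 1 infarcts, against 0.732, 2.02 and 8.29 CPM in non-diabetic infarcts, a change of 2.11 (SE 0.526, adjusted p = 0.00616). Il1rn, which encodes the receptor antagonist, had 12.2, 20.3 and 48.6 CPM in type 1 infarcts, against 3.86, 10.3 and 12.9 CPM in non-diabetic infarcts. The ranges of both genes overlapped, and Il1rn changed by 1.26 (SE 0.252, adjusted p = 0.00132). Il1b, interleukin-1 beta itself, had 3.24, 9.67 and 24.3 CPM in type 1 infarcts, against 0.754, 5.38 and 7.9 CPM in non-diabetic infarcts. Its rise of 1.21 (SE 0.407, adjusted p = 0.0337) did not pass when any of 4 libraries was left out, at 0.96 (adjusted p = 0.0976) without type 1 replicate 7. The inflammasome sensor Nlrp3 rose by 0.65 (SE 0.176, adjusted p = 0.00984) and Il18, a cytokine that inflammasomes activate, by 0.53 (SE 0.142, adjusted p = 0.00937). With the cardiomyocyte level as a covariate, where 7.93 percent of all genes rose and 8.83 percent fell, only 2 genes of this list rose, and Nlrp3 was at 0.54 (adjusted p = 0.053).

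Of 17 other inflammatory cytokines 9 rose and none fell (median 0.68), of which 3 did so with the cardiomyocyte covariate. Tnfsf14, which encodes LIGHT, a TNF family member made by activated leukocytes, had 3.42, 4.49 and 6.57 CPM in type 1 infarcts, against 0.385, 1.48 and 2.56 CPM in non-diabetic infarcts. The groups did not overlap, and the change was 1.70 (SE 0.24, adjusted p = 0.000129). Il6, an inducer of the acute phase response, rose by 1.40 (SE 0.376, adjusted p = 0.00941) in overlapping groups, with type 1 replicate 7 highest (35.3 CPM). Il10, which restrains macrophage activation, rose by 1.30 (SE 0.38, adjusted p = 0.0159), and Il33, an alarmin of stromal cells, by 0.60 (SE 0.196, adjusted p = 0.0279).

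Monocyte and macrophage genes rose, but not every state of the cell did. Of 18 inflammatory monocyte genes 12 rose and 1 fell (median 0.63). Ly6c2, a surface protein of inflammatory monocytes that shares reads with its Ly6 neighbours, had 4.71, 7.88 and 13.6 CPM in type 1 infarcts, against 2.29, 2.81 and 4.06 CPM in non-diabetic infarcts. The groups did not overlap for it (log2 change 1.52, SE 0.213, adjusted p = 0.000129) nor for Ms4a4c (1.48), a membrane protein of monocytes. Chil3, a secreted chitinase-like protein of monocytes and neutrophils, had 15.3, 71.2 and 246 CPM in type 1 infarcts, against 1.8, 8.71 and 60.1 CPM in non-diabetic infarcts (2.56, SE 0.624, adjusted p = 0.00527; 2.07 without type 1 replicate 4). The 1 fall in the list was Fn1, fibronectin, at −0.52 (SE 0.142, adjusted p = 0.0103), which fibroblasts also make in quantity. The summed level of the list, which follows its most abundant members, had 5568, 7709 and 10254 CPM in type 1 infarcts. It was higher in non-diabetic infarcts, with 7422, 10329 and 12925 CPM. The mean log2 CPM over the members, in which each gene counts alike, went the other way. It was 4.98 (SD 0.25) in type 1 and 4.12 (SD 0.25) in non-diabetic infarcts.

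Of 17 genes of tissue-resident macrophages 11 rose and 1 fell (median 1.03), 10 and 1 of them whichever library was left out. Folr2, a folate receptor of resident macrophages, had 6.73, 7.74 and 9.52 CPM in type 1 infarcts, against 1.54, 3.3 and 5.1 CPM in non-diabetic infarcts, with no overlap (1.19, SE 0.156, adjusted p = 0.000129). Mrc1, the mannose receptor, had 177, 344 and 398 CPM in type 1 infarcts, against 89.6, 139 and 259 CPM in non-diabetic infarcts. The ranges overlapped, with type 1 replicate 3 the lowest of its group and non-diabetic replicate 5 the highest, and the change was 1.11 (SE 0.174, adjusted p = 0.000204). F13a1, the transglutaminase subunit that macrophages share with platelets, rose by 1.59 (SE 0.282, adjusted p = 0.000503), and Cbr2, a carbonyl reductase of resident macrophages, by 1.10 (SE 0.234, adjusted p = 0.00201). Lyve1, a hyaluronan receptor of the same cells and of lymphatic vessels, was at 0.30 (SE 0.269, adjusted p = 0.443). The 1 fall was Gas6, a bridge between dying cells and the phagocyte, at −0.57 (SE 0.166, adjusted p = 0.0151).

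Lipid-associated macrophages, which carry TREM2 and take up debris, moved less. Of their 20 genes 8 rose and 1 fell (median 0.21), 5 and none with each library left out. Spp1, osteopontin, rose by 0.79 (SE 0.212, adjusted p = 0.0097), and Fabp5, a fatty acid carrier, by 0.70 (SE 0.126, adjusted p = 0.000598). Trem2 itself had 121, 153 and 204 CPM in type 1 infarcts, against 119, 152 and 184 CPM in non-diabetic infarcts, and Gpnmb, a lysosomal glycoprotein of foamy macrophages, was at −0.11 (SE 0.196, adjusted p = 0.727). Of 17 genes common to all macrophages 11 rose (median 0.37), among them the integrin Itgam (0.99) and the Fc receptor Fcgr1 (0.85), both without overlap. Dendritic cell genes gave no call among 16 (median −0.13; none without type 1 replicate 4 or with the covariate), and Mgl2, a lectin shared by dendritic cells and repair macrophages, fell by 1.00 on the log2 scale (SE 0.313, adjusted p = 0.0235). Of 15 alternative activation genes 9 rose and 1 fell, and 3 rose with the cardiomyocyte covariate. Arg1, which diverts arginine from nitric oxide to polyamines and proline, had 39.6, 140 and 242 CPM in type 1 infarcts, against 7.5, 35.2 and 107 CPM in non-diabetic infarcts (1.73, SE 0.522, adjusted p = 0.0185; 1.13 and adjusted p = 0.083 with the covariate).

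**Figure D2:**
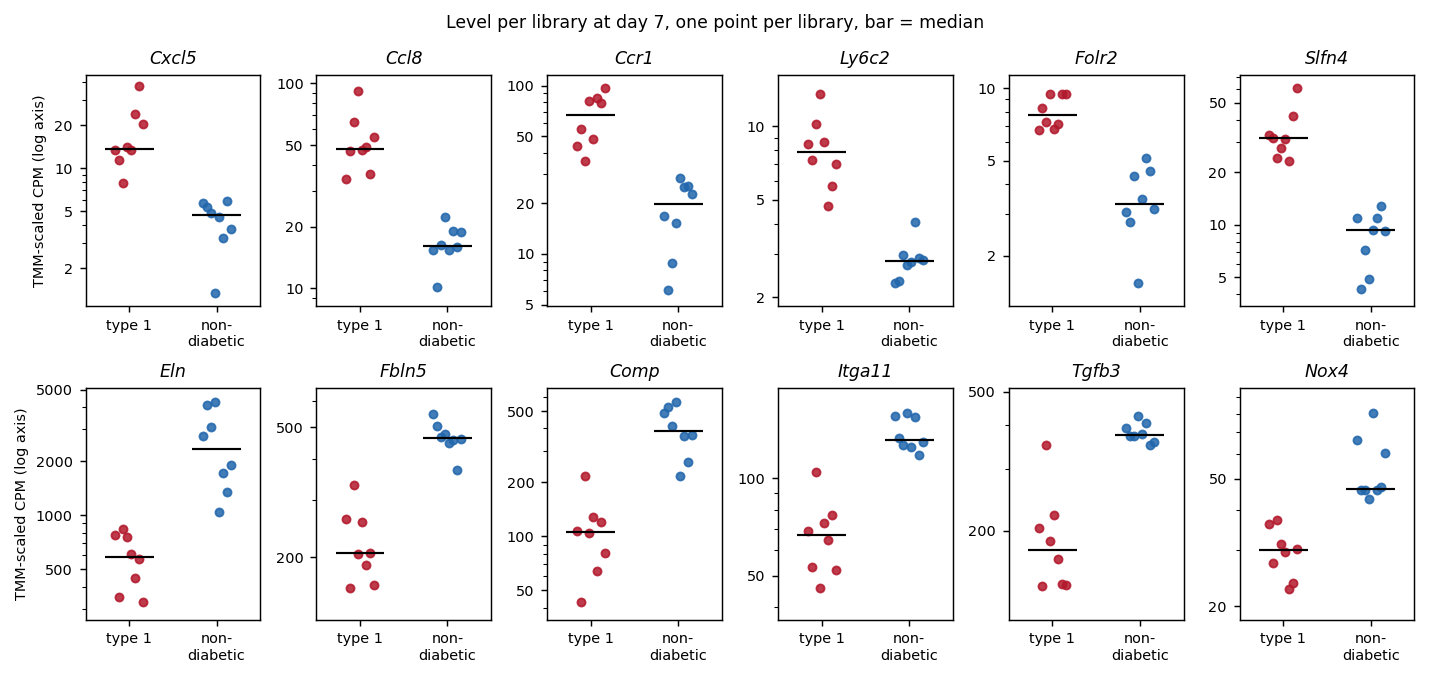
TMM-scaled CPM (log axis) of 12 genes in each day 7 library, type 1 left and non-diabetic right, with the median as a bar. The groups do not overlap for Cxcl5, Ccl8, Ccr1, Ly6c2, Folr2 and Slfn4 in the upper panels, and type 1 replicate 3 is the highest type 1 point for Fbln5, Comp, Itga11, Tgfb3, Nox4 and Eln in the lower ones.

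Receptors of eosinophils were low. Ccr3, the eotaxin receptor, had 0.431, 0.657 and 0.799 CPM in type 1 infarcts, against 0.146, 0.207 and 0.351 CPM in non-diabetic infarcts, with no overlap (1.43, SE 0.291, adjusted p = 0.00147). Siglecf, an eosinophil lectin, rose by 1.25 (SE 0.346, adjusted p = 0.0116) in overlapping groups. Of 8 tested mast cell and eosinophil genes 4 rose (median 1.39), where 11.1 percent of all genes rose. Without type 1 replicate 4, which had the highest sum of this list, 3 rose and the median was 0.19. With the cardiomyocyte covariate 2 rose (median 0.03). Fcer1a, Ms4a2, Prg2 and Epx, which define these cells, were too low to test. Of 22 tested lipid mediator genes 10 rose and 2 fell. Among the rises were Alox5ap, the partner of 5-lipoxygenase in leukotriene synthesis, at 0.64 (SE 0.124, adjusted p = 0.00101) and Ltb4r1, the leukotriene B4 receptor, at 1.34 (SE 0.341, adjusted p = 0.00702). Tbxas1, thromboxane synthase, rose by 0.59 (SE 0.099, adjusted p = 0.000348). The falls were Ptgis, which makes the vasodilator prostacyclin, at −0.50 (SE 0.095, adjusted p = 0.00088), and Tbxa2r, the thromboxane receptor, at −0.78 (SE 0.176, adjusted p = 0.0031).

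T cell and NK cell genes leaned higher. Of 20 T cell genes 4 rose and none fell (median 0.35), where 11.1 percent of all genes rose. The change was positive for 19 of the 20, but none of the rises held with every library left out in turn. Of 15 NK cell and cytotoxic genes 3 rose, and 14 had a positive change. Among the rises was Gzmb, which encodes granzyme B, at 1.60 (SE 0.322, adjusted p = 0.0014). B cell genes had a median of 1.13 with type 1 replicate 4 and −0.36 without it, and none of 15 was called either way. Ighm, the immunoglobulin heavy chain of naive B cells, reached 3719 CPM in that library, which held 92.6 percent of its type 1 counts.

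Antiviral interferon-stimulated genes rose moderately. Of 30 tested 18 rose and none fell (median 0.42), 16 of them whichever library was left out. Mx1, which blocks viral nucleocapsids, had 24.5, 32 and 41.1 CPM in type 1 infarcts, against 10.1, 16.1 and 23 CPM in non-diabetic infarcts, without overlap (0.97, SE 0.157, adjusted p = 0.000268). Zbp1, a sensor of Z-form nucleic acid, was separated too (0.80, SE 0.133, adjusted p = 0.000331). Oas3, a maker of the 2-5A signal that activates an RNA-degrading enzyme, rose by 0.89 (SE 0.18, adjusted p = 0.00147), and Rsad2, viperin, by 0.63 (SE 0.156, adjusted p = 0.00578). Isg15, a ubiquitin-like modifier, had 17.4, 32.2 and 39.7 CPM in type 1 infarcts, against 12.3, 24.9 and 39 CPM in non-diabetic infarcts (0.32, SE 0.173, adjusted p = 0.187). Of 18 targets of interferon gamma 3 rose (median 0.18), where 11.1 percent of all genes rose. In the Ifi200 and Schlafen families, interferon-inducible genes of myeloid cells with near-identical copies that can share reads, 10 of 16 rose (median 0.71), 5 without overlap. Slfn4 had 23.1, 31.3 and 60.6 CPM in type 1 infarcts, against 4.27, 9.31 and 12.8 CPM in non-diabetic infarcts (1.95, SE 0.288, adjusted p = 0.000154), and Slfn1 changed by 1.56 and Ifi204 by 0.98.

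The interferon-stimulated response element is a promoter sequence known from many genes that interferon induces. Its core, searched as GAAANNGAA on both strands in RefSeq windows from 250 bases before to 50 after each start, was found in 13 of 20 list members with a window (65 percent), against 9.76 percent of 27025 genes and 8.56 percent of 32851 windows. Of the members that rose 5 of 10 held it, and of those that did not rise 8 of 10. The stretches below show a match (capitals) upstream of the start of 2 genes that rose and of Isg15, which was not called, read 5′ to 3′ on the gene's strand in GRCm38.p6; Rsad2 carries the reverse complement.
Oas3, chr5:120777695-120777753, minus strand: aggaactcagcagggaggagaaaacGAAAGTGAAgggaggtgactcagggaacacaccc
Rsad2, chr12:26456538-26456596, minus strand: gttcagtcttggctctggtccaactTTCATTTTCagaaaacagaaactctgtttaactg
Isg15, chr4:156200857-156200915, minus strand: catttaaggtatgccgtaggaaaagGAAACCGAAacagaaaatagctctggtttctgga

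Cell cycle genes rose across the list. Of 32 proliferation genes 30 rose and none fell (median 0.59), 25 of them whichever library was left out, 32 without type 1 replicate 4 and 19 with the cardiomyocyte covariate. Ccne1, the cyclin of entry into DNA synthesis, had 7.18, 8.5 and 11.2 CPM in type 1 infarcts, against 3.84, 5.72 and 6.59 CPM in non-diabetic infarcts, without overlap (0.71, SE 0.125, adjusted p = 0.000477). Mki67, the nuclear protein of dividing cells, had 104, 153 and 175 CPM in type 1 infarcts, against 48.7, 80.2 and 141 CPM in non-diabetic infarcts (0.73, SE 0.173, adjusted p = 0.00416). Its ranges overlapped, with type 1 replicate 7 and non-diabetic replicate 7 the highest of their groups. Cdk1, the kinase of mitosis, rose by 0.59 (SE 0.138, adjusted p = 0.00394), Top2a, which untangles chromosomes, by 0.72 (SE 0.202, adjusted p = 0.0127), and Mcm3, part of the replicative helicase, by 0.60 (SE 0.114, adjusted p = 0.00083).

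Many late cell cycle genes carry the cell cycle homology region, through which the DREAM complex acts. Searched as TTTGAA on both strands in the same windows, it was found in 12 of 26 members with a window (46.2 percent), against 20.2 percent of all genes and 17.9 percent of windows. Of the members that rose 11 of 24 held it, and of the other 2 members 1 did. Matches (capitals) that lie upstream of the start are shown for 3 genes that rose.
Mki67, chr7:135716447-135716502, minus strand: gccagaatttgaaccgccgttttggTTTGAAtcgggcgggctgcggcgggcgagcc
Cdk1, chr10:69352953-69353008, minus strand: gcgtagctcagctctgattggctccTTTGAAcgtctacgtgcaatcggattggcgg
Top2a, chr11:99024338-99024393, minus strand: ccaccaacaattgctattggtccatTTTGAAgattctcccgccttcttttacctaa

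Elastic fibre genes were lower in type 1 infarcts, and their core protein fell most. Eln, elastin, had 328, 588 and 838 CPM in type 1 infarcts, against 1042, 2329 and 4259 CPM in non-diabetic infarcts. No type 1 library reached the lowest non-diabetic one, and the change was −2.11 (SE 0.312, adjusted p = 0.000154). Fbln5, the fibulin that brings elastin to microfibrils, had 161, 206 and 332 CPM in type 1 infarcts, against 369, 463 and 550 CPM in non-diabetic infarcts, again without overlap (−1.07, SE 0.163, adjusted p = 0.000174). Fbln7 (−1.59) and the microfibril-binding Adamtsl2 (−1.39) were separated as well. Fbln1 fell by 1.44 on the log2 scale (SE 0.226, adjusted p = 0.000196), Mfap4, a microfibril glycoprotein, by 1.16 (SE 0.182, adjusted p = 0.000196), and Ltbp4, which anchors latent TGF-beta and guides elastin assembly, by 1.12 (SE 0.157, adjusted p = 0.000129). Of 18 elastic fibre genes 8 fell and 2 rose (median −0.26), the same counts whichever library was left out. The rises were Efemp1, fibulin-3, at 1.19 (SE 0.224, adjusted p = 0.00083) and Emilin2 at 0.80 (SE 0.171, adjusted p = 0.00206).

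Collagens fell broadly. Of 11 fibrillar collagen chains 8 fell and none rose (median −0.62), and of 31 other chains 19 fell and 2 rose (median −0.58). Col1a1, a chain of type I collagen and the bulk of a scar, had 5363, 7800 and 11840 CPM in type 1 infarcts, against 10366, 14024 and 16548 CPM in non-diabetic infarcts (−0.74, SE 0.152, adjusted p = 0.00151). The ranges overlapped, with type 1 replicate 3 the highest of its group and non-diabetic replicate 2 the lowest. Col3a1, the chain of the finer type III fibrils, fell by 0.37 (SE 0.12, adjusted p = 0.0277), which no longer passed when any of 5 libraries was left out, at −0.30 (adjusted p = 0.0576) without type 1 replicate 2. Chains known from cartilage fell by different amounts, with Col11a2 at −0.74, Col27a1 at −0.62, Col11a1 at −0.72 and Col9a2 at −1.10. Col2a1, the main collagen of cartilage, had 5.55, 11 and 21.6 CPM in type 1 infarcts, against 19.2, 42.5 and 68.9 CPM in non-diabetic infarcts (−1.78, SE 0.273, adjusted p = 0.000176). Col9a1, which coats type II fibrils, had 0.105, 0.187 and 0.957 CPM in type 1 infarcts, against 0.976, 1.5 and 2.12 CPM in non-diabetic infarcts, and its groups did not overlap (−2.40, SE 0.414, adjusted p = 0.000403). The chains that rose were Col28a1, at 0.88 (SE 0.184, adjusted p = 0.00169), and Col17a1.

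**Figure D3:**
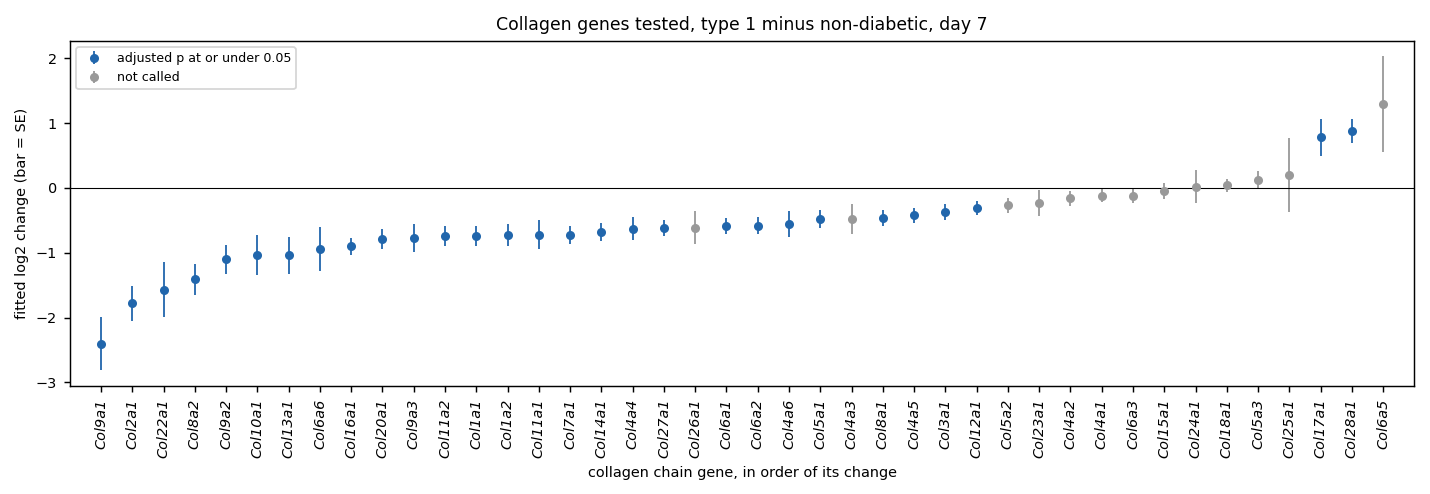
Fitted log2 change (type 1 minus non-diabetic, day 7) of each collagen chain tested, ordered by its change, with the SE as bars and called chains in blue. The cartilage chains Col9a1 (−2.40) and Col2a1 (−1.78) lie at the low end, and Col17a1 and Col28a1 (0.88) are the called rises.

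Genes of the maturing, cartilage-like scar fell most as a list. Of 19 tested 15 fell and none rose (median −1.08), 14 of them whichever library was left out. Comp, which links collagen fibrils in cartilage and tendon, had 42.9, 106 and 218 CPM in type 1 infarcts, against 217, 389 and 561 CPM in non-diabetic infarcts (−1.88, SE 0.27, adjusted p = 0.000133). The highest type 1 library, replicate 3, just passed the lowest non-diabetic one, replicate 5. Fmod, which shapes collagen fibrils, fell by 1.52 (SE 0.271, adjusted p = 0.000514), and Matn4, a matrilin, by 2.02 (SE 0.322, adjusted p = 0.000236). Sfrp2, a secreted Wnt modulator of scar fibroblasts, had 44.6, 109 and 323 CPM in type 1 infarcts, against 205, 396 and 725 CPM in non-diabetic infarcts (−1.66, SE 0.33, adjusted p = 0.00123). Cilp, of the cartilage intermediate layer and of cardiac fibroblasts, fell by 0.75 (SE 0.229, adjusted p = 0.0196), but not without non-diabetic replicate 2 (−0.65, adjusted p = 0.052).

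Fibroblast genes fell with the matrix, whereas the contractile gene Acta2 did not change detectably. Of 20 myofibroblast genes 8 fell and none rose (median −0.36). Itga11, a collagen receptor of myofibroblasts, had 45.7, 66.7 and 105 CPM in type 1 infarcts, against 118, 132 and 159 CPM in non-diabetic infarcts, without overlap (−1.03, SE 0.168, adjusted p = 0.000272). Nox4, an oxidase induced by TGF-beta, was separated too (−0.87, SE 0.157, adjusted p = 0.000554). Postn, periostin, fell by 0.59 (SE 0.17, adjusted p = 0.0143; −0.46 and adjusted p = 0.0657 with the cardiomyocyte covariate). Acta2, smooth muscle actin, had 687, 993 and 1319 CPM in type 1 infarcts, against 549, 1196 and 1631 CPM in non-diabetic infarcts (−0.15, SE 0.18, adjusted p = 0.582). Of 17 genes of resting fibroblasts 8 fell and 1 rose, with Pi16, a marker of adventitial fibroblasts, at −1.03 (SE 0.216, adjusted p = 0.00188), Tcf21, a fibroblast transcription factor, at −0.96 (SE 0.252, adjusted p = 0.0083), and the rise in Ly6a at 0.70 (SE 0.126, adjusted p = 0.000526). Of 15 mural cell genes 6 fell, and of 31 endothelial genes 5 fell and 2 rose (median −0.06), where 11.4 percent of all genes fell and 11.1 percent rose.

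Among signals that act on fibroblasts, Tgfb3, a TGF-beta ligand, had 139, 176 and 351 CPM in type 1 infarcts, against 352, 376 and 427 CPM in non-diabetic infarcts. The highest type 1 library, replicate 3, stopped just under the lowest non-diabetic one (−0.98, SE 0.161, adjusted p = 0.000276). Bmp4, a bone morphogenetic protein, fell by 0.74 (SE 0.136, adjusted p = 0.000704), and Ltbp3, which secretes latent TGF-beta, by 0.78 (SE 0.109, adjusted p = 0.000129). Of 25 TGF-beta, BMP and activin genes 5 fell and 2 rose (median −0.03), and of 24 Wnt genes 7 fell and none rose (median −0.29). Of all genes 11.4 percent fell and 11.1 percent rose. The Wnt receptor Fzd2 fell by 0.73 (SE 0.125, adjusted p = 0.000393) and Dkk3, a member of the Dickkopf family, by 0.94 (SE 0.166, adjusted p = 0.000475).

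Matrix proteases moved in both directions. Of 39 tested 8 rose and 13 fell. Mmp3, stromelysin, had 12.6, 38.3 and 44.4 CPM in type 1 infarcts, against 4.85, 5.71 and 36.2 CPM in non-diabetic infarcts, where replicate 5 alone was high (1.68, SE 0.393, adjusted p = 0.00389). Mmp27 rose by 1.04 (SE 0.155, adjusted p = 0.000154) without overlap and the collagenase Mmp13 by 1.03 (SE 0.264, adjusted p = 0.00716). The gelatinase Mmp2, a fibroblast product, fell by 0.82 (SE 0.14, adjusted p = 0.000393), while Mmp9, the gelatinase of neutrophils and macrophages, was at 0.80 (SE 0.646, adjusted p = 0.394). Adamts17 fell by 1.81 (SE 0.298, adjusted p = 0.000297) and Adamts10, a microfibril-associated protease, by 0.81 (SE 0.113, adjusted p = 0.000129). Inhibitors split as well, with 4 rises and 5 falls among 14. Timp1 had 313, 394 and 637 CPM in type 1 infarcts, against 141, 260 and 302 CPM in non-diabetic infarcts (0.90, SE 0.211, adjusted p = 0.00405), and Reck, a membrane-anchored inhibitor, had 15.1, 18.4 and 22.1 CPM in type 1 infarcts, against 23.7, 30.8 and 40.2 CPM in non-diabetic infarcts (−0.74, SE 0.131, adjusted p = 0.000477). Neither gene's groups overlapped.

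**Figure D4:**
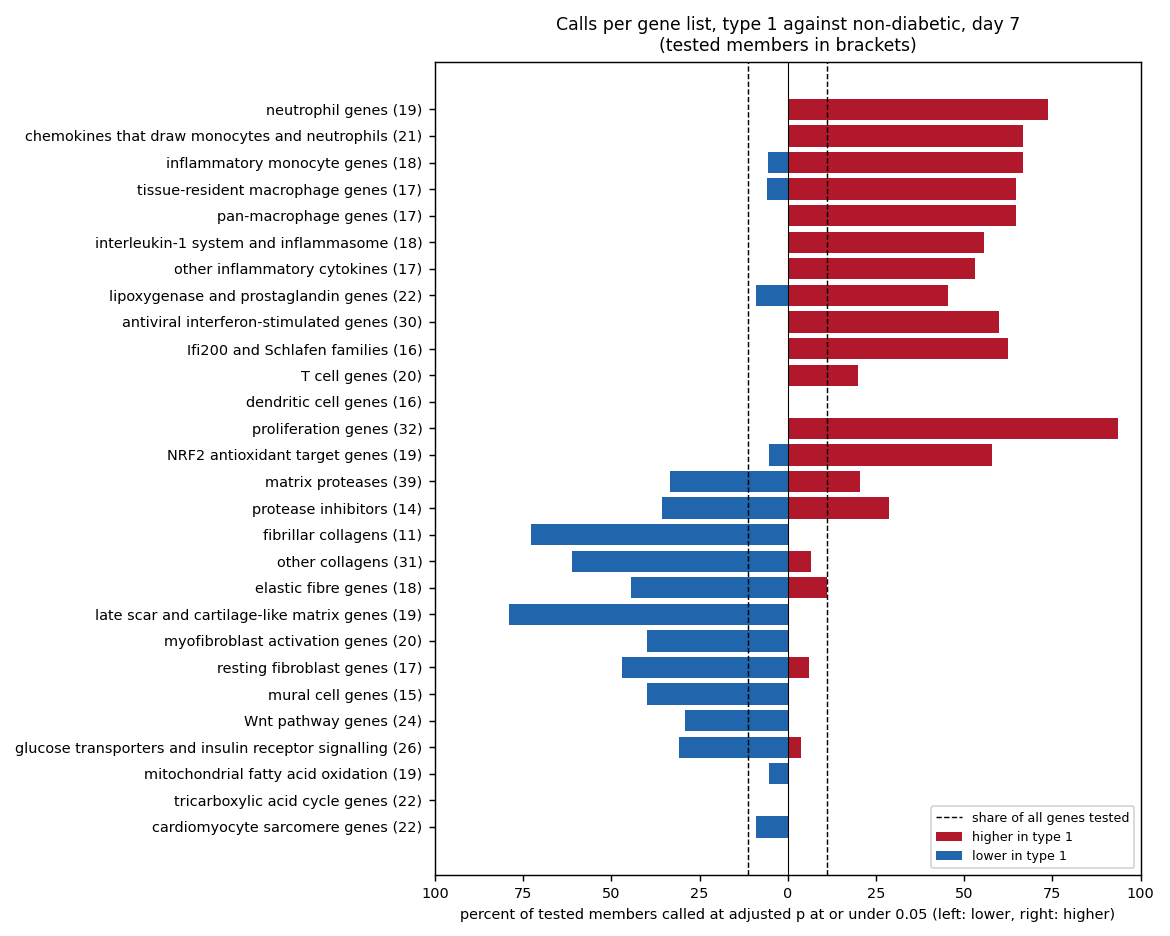
Percent of tested members of 28 gene lists called higher (right, red) or lower (left, blue) in type 1 than in non-diabetic infarcts at day 7, with the share of all genes tested (11.1 and 11.4 percent) as dashed lines. Most immune lists drawn and the proliferation and NRF2 lists lie to the right, and the collagen, elastic fibre, scar and fibroblast lists to the left. Matrix proteases and their inhibitors hold calls on both sides, and dendritic cell, sarcomere and mitochondrial lists hold few calls. Some immune lists, such as class II antigen presentation and B cell genes, are not drawn. The T cell list has 4 rises among 20 genes, none of which held with every library left out in turn.

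Targets of NRF2, the transcription factor of the antioxidant response, rose in 11 of 19 and fell in 1 (median 0.39), and the 11 rises held whichever library was left out. Slc7a11, the cystine importer that feeds glutathione synthesis, had 2.77, 6.32 and 20 CPM in type 1 infarcts, against 0.578, 2.59 and 3.06 CPM in non-diabetic infarcts (1.75, SE 0.363, adjusted p = 0.00168). Hmox1, which breaks down haem, had 296, 610 and 1141 CPM in type 1 infarcts, against 114, 275 and 581 CPM in non-diabetic infarcts (1.28, SE 0.302, adjusted p = 0.00423). The groups overlapped for both, with type 1 replicate 7 highest and replicate 3 lowest. The subunits of the rate-limiting enzyme of glutathione synthesis, Gclc and Gclm, rose by 0.63 (SE 0.139, adjusted p = 0.00273) and 0.52 (SE 0.135, adjusted p = 0.00739). Txnrd1, thioredoxin reductase, rose by 0.47 (SE 0.105, adjusted p = 0.00298) and Prdx1, a peroxiredoxin, by 0.39 (SE 0.0959, adjusted p = 0.00522). Of 24 genes of the unfolded protein and integrated stress responses 5 rose and 1 fell (median 0.17), where 11.1 percent of all genes rose. Among the rises were the amino acid enzymes Psat1 (0.83) and Asns (0.71), both without overlap.

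NRF2 binds the antioxidant response element. Its core, searched as TGACNNNGC on both strands in the same windows, was found in 6 of 16 list members with a window (37.5 percent), against 14 percent of all genes and 12.4 percent of windows. Of the members that rose 4 of 8 held it, and of those that did not rise 2 of 7. For 3 genes that rose the match is shown in capitals, here the reverse complement of the motif as read on the gene's strand.
Gclm, chr3:122245398-122245456, plus strand: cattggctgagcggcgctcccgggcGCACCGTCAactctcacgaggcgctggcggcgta
Prdx1, chr4:116685441-116685499, plus strand: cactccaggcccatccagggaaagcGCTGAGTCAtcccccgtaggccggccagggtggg
Txnrd1, chr10:82859089-82859147, plus strand: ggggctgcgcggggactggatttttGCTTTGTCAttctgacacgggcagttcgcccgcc

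Of 26 genes of glucose transport and insulin receptor signalling 8 fell and 1 rose (median −0.15), and 17 were not called. Of all genes 11.4 percent fell. With each library left out 5 of the falls remained. Slc2a4, the insulin-responsive transporter of muscle and fat, had 9.73, 29.2 and 44 CPM in type 1 infarcts, against 31.5, 57.2 and 121 CPM in non-diabetic infarcts (−1.28, SE 0.345, adjusted p = 0.0101). It is also a cardiomyocyte gene, and with the cardiomyocyte covariate its change was −0.53 (adjusted p = 0.0147). Slc2a12, another insulin-sensitive transporter, fell by 0.94 (SE 0.236, adjusted p = 0.00657), and Irs1, a docking protein of the insulin receptor, by 0.81 (SE 0.21, adjusted p = 0.00751). With the covariate these were at −0.64 (adjusted p = 0.0673) and −0.46 (adjusted p = 0.0698). Insr, the receptor, was at −0.08 (SE 0.115, adjusted p = 0.665). Slc2a1, the transporter that does not need insulin, rose by 0.41 (SE 0.111, adjusted p = 0.0097) and was the 1 rise. Foxo3, a transcription factor that insulin signalling restrains, had 60.2, 66.1 and 85.9 CPM in type 1 infarcts, against 88, 90.8 and 116 CPM in non-diabetic infarcts, without overlap (−0.44, SE 0.089, adjusted p = 0.0015).

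In glycolysis 6 of 22 genes rose and 1 fell. Hk3, the hexokinase of myeloid cells, had 31.6, 50.4 and 66.8 CPM in type 1 infarcts, against 17.9, 27.5 and 31.3 CPM in non-diabetic infarcts, without overlap (0.89, SE 0.133, adjusted p = 0.000156). Hk2, the hexokinase of muscle, was at 0.16 (SE 0.179, adjusted p = 0.542). G6pdx, the entry to the pentose phosphate pathway, rose by 0.55 (SE 0.102, adjusted p = 0.000779) and Pgam1, a glycolytic mutase, by 0.47 (SE 0.0884, adjusted p = 0.000789). Of 25 lipid-driven PPAR targets 2 rose and 1 fell. Angptl4, which inhibits lipoprotein lipase, rose by 1.13 (SE 0.241, adjusted p = 0.00205), whereas Pdk4, the brake on glucose oxidation, had 78.1, 141 and 409 CPM in type 1 infarcts, against 56.4, 112 and 182 CPM in non-diabetic infarcts (0.64, SE 0.344, adjusted p = 0.182). Txnip, which glucose induces in many cells, was at 0.16 (SE 0.153, adjusted p = 0.471).

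Mitochondrial and muscle genes gave few calls. No gene of 22 in the tricarboxylic acid cycle was called (median −0.19), 1 of 19 in fatty acid oxidation fell, and 2 of 30 nuclear respiratory chain genes fell. With the cardiomyocyte covariate 5, 7 and 5 genes of these lists rose. Of 22 sarcomere genes 2 fell (median −0.54). The covariate is the mean log2 CPM of these same genes, Myh6 and Myh7b among them. Their median with it, 0.02, is therefore largely fixed in advance, and the value of Myh7b with it is no independent check. Myh6, the main adult cardiac myosin of the mouse, had 61.4, 1625 and 2660 CPM in type 1 infarcts, against 1231, 3893 and 8469 CPM in non-diabetic infarcts (−1.56, SE 0.574, adjusted p = 0.0506), and without type 1 replicate 4 it passed at −1.39 (adjusted p = 0.048). Nppa, the atrial natriuretic peptide gene of stressed muscle, was at −0.21 (SE 0.247, adjusted p = 0.579). Single muscle genes fell further: Myh7b, a slow-type myosin, had 0.495, 1.61 and 5.17 CPM in type 1 infarcts, against 1.37, 10.7 and 29.3 CPM in non-diabetic infarcts (−2.33, SE 0.592, adjusted p = 0.00677; −1.02 and adjusted p = 0.0558 with the covariate). Kcnip2, a subunit of the channel for the transient outward current, was at −2.11 (SE 0.686, adjusted p = 0.0281; −0.80 and adjusted p = 0.0731 with the covariate), and did not pass when any of 4 libraries was left out, at −1.72 (adjusted p = 0.0822) without non-diabetic replicate 2. Mhrt, at −2.28 (adjusted p = 0.0143), is antisense to a myosin gene, so its reads are uncertain.

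Blood genes were higher. Of 9 erythroid genes 6 rose (median 2.24), whichever library was left out. Alas2, the haem enzyme of red cell precursors, had 4.42, 13.5 and 98.8 CPM in type 1 infarcts, against 2.26, 3.94 and 13.3 CPM in non-diabetic infarcts (2.32, SE 0.518, adjusted p = 0.0028). The groups overlapped, type 1 replicate 6 was far above the others, and its erythroid sum was 2397 CPM, against at most 329 CPM in non-diabetic infarcts. Of 8 platelet genes 3 rose. Ppbp, a platelet granule chemokine, had 3.01, 6.31 and 15.5 CPM in type 1 infarcts, against 0.488, 1.29 and 3.96 CPM in non-diabetic infarcts (2.15, SE 0.452, adjusted p = 0.00188). Retained blood was not measured, and its part in these rises and in those of blood leukocyte genes was not tested.

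Other genes without overlap between the groups came from no single pathway. Higher in type 1 were Steap1, a metalloreductase family member (1.25, SE 0.263, adjusted p = 0.00183), Nxpe5 (1.23, SE 0.185, adjusted p = 0.000167), Npl, a sialic acid lyase (1.14, SE 0.137, adjusted p = 9.13e-05), and Sirpb1c, a signal-regulatory protein of myeloid cells (1.12, SE 0.161, adjusted p = 0.000133). Nxpe5 had 35.1, 45.7 and 60.7 CPM in type 1 infarcts, against 9.31, 20.2 and 28.5 CPM in non-diabetic infarcts. Lower were Hdac11, a histone deacetylase (−1.28), Zfr2, a zinc finger protein (−1.27), the secreted Scube1 (−1.24), Prss35, a protease-like protein (−1.23), Mn1, a transcriptional regulator (−1.15), Sema6c, a semaphorin (−1.13), Art4, of the ADP-ribosyltransferase family (−1.12), Pdgfrl, a receptor-like protein (−0.99), Nalcn, a sodium leak channel (−0.96), and Smoc2, a matricellular protein (−0.75). Art4 had 10.3, 18.4 and 26.4 CPM in type 1 infarcts, against 32.4, 40.1 and 51.3 CPM in non-diabetic infarcts, and Hdac11 had 1.3, 2.78 and 4.42 CPM in type 1 infarcts, against 5.53, 6.28 and 9.05 CPM in non-diabetic infarcts.

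Type 1 infarcts were also set against type 2 infarcts of the same day. Type 1 and type 2 infarcts differed in 492 of 18165 genes (2.71 percent), 275 of them higher (1.51 percent) and 217 lower (1.19 percent) in type 1. Against non-diabetic tissue 1336 genes were called in type 2 infarcts (7.35 percent). Both comparisons with non-diabetic tissue share its 8 libraries, so their values are given side by side and only the direct test compares them. Ccr1 was at 1.82 in type 1 and 0.42 in type 2 infarcts, a difference of 1.40 (adjusted p = 0.0196). Mrc1 was at 1.11 in type 1 and 0.12 in type 2 (difference 0.99, adjusted p = 0.00472), F13a1 at 1.59 in type 1 and −0.07 in type 2 (1.66, adjusted p = 0.00382), and Npl at 1.14 in type 1 and 0.41 in type 2 (0.74, adjusted p = 0.00559). S100a8 was at 2.56 in type 1 and 0.34 in type 2 (2.22, adjusted p = 0.0485), and Stfa2l1 at 3.41 in type 1 and −0.14 in type 2 (3.54, adjusted p = 0.00544). Of 19 neutrophil genes the direct test called only these 2, with a median difference of 1.36 over the list. Both were highest in type 1 replicate 4, at 131 CPM for S100a8 and 6.06 CPM for Stfa2l1. Of the NRF2 targets, Gclc was at 0.63 in type 1 and 0.05 in type 2 (0.57, adjusted p = 0.0268) and Srxn1, sulfiredoxin, at 0.68 in type 1 and 0.02 in type 2 (0.66, adjusted p = 0.0176). Tfrc, the transferrin receptor, was at 0.73 in type 1 and −0.07 in type 2 (0.81, adjusted p = 0.00822), and Tnnt3, a fast muscle troponin, at 0.72 in type 1 and −0.29 in type 2 (1.00, adjusted p = 0.00752).

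Antiviral interferon-stimulated genes rose in both forms of diabetes, and the direct test called 18 of the 30 lower in type 1 than in type 2 infarcts and none higher. Against non-diabetic tissue 18 rose in type 1 (median 0.42) and 29 in type 2 infarcts (median 0.91), where 3.85 percent of all genes rose and 3.50 percent fell. Irf7, the regulator that amplifies interferon, was at 0.69 in type 1 and 1.39 in type 2 infarcts (difference −0.70, adjusted p = 0.00539), and Isg15 at 0.32 in type 1 and 1.01 in type 2 (−0.69, adjusted p = 0.0315). Mx1 was at 0.97 in both (0.00, adjusted p = 0.999). Of 15 NK cell genes 3 rose in type 1 and 13 in type 2 infarcts, and the direct test called 6 lower in type 1. In the matrix Col2a1 was at −1.78 in type 1 and −0.69 in type 2 (difference −1.09, adjusted p = 0.0294) and Matn4 at −2.02 in type 1 and −0.65 in type 2 (−1.36, adjusted p = 0.0225), but Eln, at −2.11 in type 1 and −1.32 in type 2, did not differ by the direct test (−0.80, adjusted p = 0.146), nor did Col1a1, at −0.74 in type 1 and −0.48 in type 2 (−0.26, adjusted p = 0.354). The 492 calls moved with the model, between 289 without the low-count filter and 2927 with limma-voom.

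**Figure D5:**
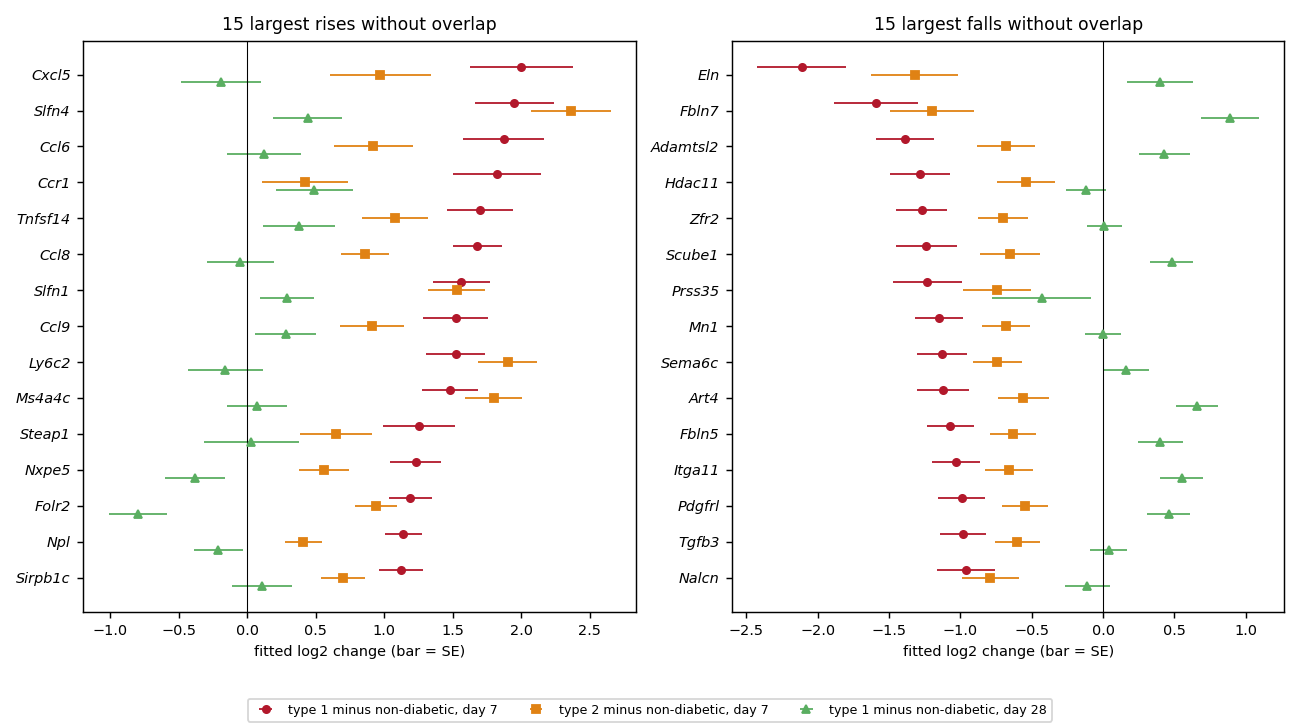
Fitted log2 change with its SE of the 15 largest rises (left) and 15 largest falls (right) among genes of day 7 whose type 1 and non-diabetic libraries did not overlap, beside type 2 minus non-diabetic at day 7 and type 1 minus non-diabetic at day 28. Slfn4, Ly6c2 and Ms4a4c lie further right in type 2 than in type 1, and Eln (−2.11 in type 1 at day 7) is at 0.40 at day 28.

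At day 28 type 1 infarcts differed from non-diabetic ones in fewer genes: 395 rose (1.93 percent of 20421) and 270 fell (1.32 percent). The change with type 1 diabetes differed between the days for 2548 genes (12.5 percent), 1425 with a higher (6.98 percent) and 1123 with a lower value (5.50 percent) at day 28. Day and sequencing project cannot be told apart here, since each day was its own project by the library names. The genes given here were chosen for their change at day 7, which enters the difference with a minus sign, so their reversal is in part fixed by that choice. Eln was at 0.40 at day 28, 2.52 above its day 7 value (adjusted p = 5.31e-06), and Itga11 was at 0.55 (difference 1.58, adjusted p = 8.3e-06). Fbln7 was at 0.89 and a call at day 28 (adjusted p = 0.00812; difference 2.49, adjusted p = 1.94e-06). Ccl8 was at −0.05 (difference −1.72, adjusted p = 0.0012) and Folr2 at −0.80 (adjusted p = 0.0237; difference −2.00, adjusted p = 3.13e-05). Of the 21 chemokine genes 1 fell and none rose at day 28, and of 31 other collagens 3 rose. Of the PPAR targets 7 of 25 rose at day 28, against 2 at day 7.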

How the data were processed

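RNA came from a PureLink kit and libraries from a TruSeq stranded mRNA kit, per the labels' protocols. The deposited values are raw counts by Ensembl gene identifier, in separate tables for day 7 and day 28. The submitters' processing notes name the build mm39 and the tool DESeq2. No source used here gives the aligner, counter, strand setting or annotation, so overlapping antisense genes and near-identical copies (haemoglobin, immunoglobulin, Ly6, Schlafen and Ifi200 genes) are uncertain. Of deposited day 7 counts from 1 to 49, 76.4 percent were even, as if both mates of a pair had been counted, and p-values rest on the spread between libraries, not on counting error.

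Gene symbols came from GENCODE M21 (GRCm38) by identifier: 51948 of 56941 day 7 genes, with 99.34 percent of counts, had one. Promoter windows came from RefSeq (GRCm38.p6), a build other than that of the files, and are cited with their own coordinates. Windows on mouse chromosome 18 were left out.

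The counts were tested in R 4.3.3 with edgeR 4.0.16: TMM scaling, filterByExpr (minimum count 10, total 15), glmQLFit and glmQLFTest on the 24 day 7 libraries of 3 groups together. An adjusted p (Benjamini-Hochberg over all genes tested) at or under 0.05 is a call. Adjusted p-values of genes are from edgeR throughout, and the SE is the size of the log2 change divided by the square root of F. A second fit of all 55 libraries gave the day 28 values and the difference between days. Pairs of libraries within a group differed by at least 22.9 in chi-square per gene (genes with at least 50 counts), so none was a repeat sequencing of another in its group. This cannot tell whether libraries came from the same animal.

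Members and the 71 gene lists (1226 symbols, 1169 of them tested) were chosen with earlier results of these data known. Named genes are the 15 largest changes in each direction without overlap (mean log2 CPM of at least 1), the 4 largest in each direction with or without it, up to 4 called members of each list with the smallest p, a fixed set, and the 6 of these with the smallest p of each side contrast. Further list members are named with their values. Alternatives were DESeq2 1.42.0, limma-voom 3.58.1 with quality weights, no low-count filter, RLE scaling, a fit of only the groups compared, the replicate number as a block, the mean cardiomyocyte level as a covariate, sums over libraries with a common first number in the library name (6 type 1, 6 non-diabetic and 4 type 2 sums; the labels do not say what it is), and each of the 16 libraries left out. The cardiomyocyte level is the mean log2 CPM of the sarcomere gene list. The edgeR test of type 1 against non-diabetic infarcts at day 7 was also run on simulated counts, and the other tests were not.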

Additional observations from a re-analysis of the deposited data

Results flagged for a closer look

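For some genes 1 library lay far from the other 7 of its group, its gap to the next library being more than 52.6 percent of the group's range in log2 CPM. Chance flags about 1 group in 20, and 21 of 246 groups were flagged over the genes given with values. In type 1 replicate 4, the library with the lowest cardiomyocyte sum, the high levels were Cma1 at 3.76 (the others −1.94 to 0.72) and Il18 at 3.43 (the others 2.24 to 2.78). The low levels there were Hk2 at 6.39 (the others 7.14 to 7.75) and Nppa at 7.14 (the others 8.86 to 9.94). In type 1 replicate 3 the high levels were Col9a1 at 0.01 (the others −2.68 to −1.55), Ltbp3 at 8.51 (the others 7.55 to 7.93) and Pdgfrl at 6.84 (the others 5.58 to 6.15). In type 1 replicate 8 the high level was Siglecf at 1.98 (the others 0.17 to 0.98). In non-diabetic replicate 5 the high levels were Gclc at 5.38 (the others 4.30 to 4.63) and Lyve1 at 4.81 (the others 2.78 to 3.63). The low levels there were Adamts17 at 1.79 (the others 3.07 to 3.72), Hk2 at 6.36 (the others 7.09 to 7.60), Il1b at −0.31 (the others 1.56 to 2.99) and Mhrt at 0.53 (the others 2.70 to 4.59). In non-diabetic replicate 2 the low levels were Ccl8 at 3.36 (the others 3.95 to 4.47), Fcgr1 at 4.94 (the others 5.56 to 6.03), Hk3 at 4.16 (the others 4.68 to 4.97) and Zbp1 at 3.31 (the others 3.92 to 4.35). In non-diabetic replicate 4 the low levels were Cxcl5 at 0.49 (the others 1.73 to 2.57) and Postn at 12.25 (the others 12.86 to 13.35). In non-diabetic replicate 6 the high level was Ly6c2 at 2.04 (the others 1.23 to 1.60).

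The change with type 1 diabetes differed between the days, by edgeR's test of the difference itself, for 39 of the 43 genes named by size of change at day 7 or by a side contrast, against 12.5 percent of all genes. Since they were chosen for that change or for a contrast that can be this difference, and the day 7 change is subtracted in it, the count and the opposite signs are largely fixed by the choice and are given as values. Values are the log2 change at day 28 minus that at day 7, and day cannot be told apart from sequencing project. Genes that were higher in type 1 infarcts at day 7 had lower values at day 28: Ccl6 −1.74, Ccl8 −1.72, Ccl9 −1.25, Ccr1 −1.33, Chil3 −2.88, Cxcl5 −2.21, Cxcr2 −2.38, F13a1 −2.21, Folr2 −2.00, Ly6c2 −1.67, Mrc1 −1.22, Ms4a4c −1.42, Npl −1.35, Nxpe5 −1.60, S100a8 −3.07, S100a9 −3.19, Sirpb1c −1.01, Slfn1 −1.28, Slfn4 −1.53, Stfa2l1 −3.16 and Tnfsf14 −1.33. Genes that were lower at day 7 had higher values at day 28: Adamtsl2 1.82, Art4 1.78, Eln 2.52, Fbln5 1.47, Fbln7 2.49, Hdac11 1.16, Itga11 1.58, Kcnip2 2.16, Mhrt 1.78, Mn1 1.15, Myh7b 1.98, Nalcn 0.85, Pdgfrl 1.45, Scube1 1.72, Sema6c 1.29, Smoc2 0.95, Tgfb3 1.02 and Zfr2 1.29. Of the 43 genes 5 were called at day 28.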

How the results depend on the processing

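Type 1 against non-diabetic infarcts gave 4087 calls, and without single libraries 3201 (non-diabetic replicate 2) to 5345 (non-diabetic replicate 5), with 1603 to 2747 higher and 1567 to 2598 lower. Sums over libraries with a common first number in the name gave 1459 calls (702 higher, 757 lower) from fewer samples. The other settings gave 2948 (only the groups compared) to 5901 (limma-voom). Of 240 named genes called, 147 kept their call under all settings, 200 with each library left out, and 83 and 57 lost it with summed libraries and with the cardiomyocyte covariate. With that covariate, Cma1 was at −0.31 (2.04 without it), Insr at 0.13, Nppa at 0.25 and Trem2 at −0.02, opposite in sign to their values without it, and the cause was not tested. In the lists, 8 tissue-resident macrophage genes rose with the covariate (11 without it) and 6 pan-macrophage genes (11 without it). Of other collagens 13 fell with it (19 without it), and of fibrillar collagens 9 (8 without it).

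The 492 calls between type 1 and type 2 infarcts (275 higher, 217 lower) became 289 (148, 141) without the low-count filter, 1058 (566, 492) with DESeq2, 2927 (1488, 1439) with limma-voom, 983 (536, 447) with only these groups, and 582 (313, 269) without type 1 replicate 4, an alternative chosen after seeing the data. The 2548 calls of the difference between days (1425 higher, 1123 lower) became 3907 (1861 lower) with limma-voom and 2696 (1450, 1246) without type 1 replicate 4. The cause of these shifts was not tested.

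Replicate numbers were not taken as pairs: deviations of same-numbered type 1 and non-diabetic libraries correlated between −0.366 and 0.236, and 2 type 1 libraries correlated best with their own number. With the replicate number as a block, 4136 genes were called (2089 higher, 2047 lower), and 373 between type 1 and type 2 (194, 179). Library totals were at least 10756242 counts, and 50 symbols of the lists, among them Ly6g and Elane, were too low to be tested.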

Other observations

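Further gene groups are given beside the 11.1 percent of all genes that rose and the 11.4 percent that fell at day 7 (1.93 and 1.32 percent at day 28). Of 19 hypoxia response genes in the lists 18 were tested, with 1 rise and 1 fall, and of 14 heat shock genes 1 rose and 1 fell. Of 18 circadian clock genes 2 fell and none rose, and of 16 glucocorticoid-responsive genes 1 rose at day 7 and 6 at day 28. Of 22 immediate early genes 4 rose at day 7 and 10 at day 28. Of 17 iron genes 7 rose and 1 fell, and of 14 pentose phosphate and hexosamine genes 5 rose and none fell. Of 21 sterol and fatty acid synthesis genes 5 rose at day 7, none of them with every library left out in turn, and 5 fell at day 28. Of 10 genes of glycation and methylglyoxal handling 4 rose and 2 fell. Of 14 class II antigen presentation genes 3 rose and none fell (median 0.05, and −0.19 without type 1 replicate 4). Of 20 complement genes 5 rose and 1 fell (median 0.25, and 0.09 without that library).

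The largest fitted rises rested on type 1 replicate 4. Of 12 genes that rose by more than 3 on the log2 scale, 7 had at least 50 percent of their type 1 counts in that library, and of all 2016 rises 20 did. Adipocyte genes had a median log2 change of 3.16 with it and 0.17 without it. Car3, a carbonic anhydrase of fat and skeletal muscle, was at 3.88 (adjusted p = 0.0482) with it and 0.31 (adjusted p = 0.871) without it. On the first principal component of the 500 most variable genes, which held 42.9 percent of their variance, that library lay at −54.8. What set it apart was not tested.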
